A study of Mesocricetus auratus with 24 samples.

Results

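The subunits of the AMPA and kainate receptors were measured in the inferior colliculus (IC) of GASH/Sal hamsters, a strain that convulses when it hears loud sound, set against Syrian hamsters as controls. The set holds 9 genes of the 19938 tested, 4 AMPA subunits (Gria1 to Gria4) and 5 kainate subunits (Grik1 to Grik5), chosen by gene symbol. Each of the 9 was read by 1 probe set. The 24 arrays, 1 per labelled biological replicate, covered stimulated GASH/Sal, naïve GASH/Sal, stimulated Syrian and naïve Syrian hamsters, with 6 arrays in each of the 4 groups. All animals were 16 weeks old. Stimulated animals were exposed to sound and their IC was taken 60 min after the seizure protocol, whereas the other animals, called naïve here, have no exposure in their labels. GASH/Sal carries no transgene named in the labels, and the strain as a whole is the model, so that any difference between GASH/Sal and Syrian animals is one between 2 hamster strains. The RNA came from IC tissue in bulk, in which fewer cells of a type and less RNA per cell cannot be told apart.

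AMPA receptors are glutamate-gated cation channels made of 4 subunits, and they carry most of the fast excitatory transmission of the brain. The Gria2 product, edited at the RNA level, keeps calcium from passing the channel, and receptors rich in the Gria3 and Gria4 products are known for the fast responses of auditory neurons. Kainate receptors are built from the Grik1, Grik2 and Grik3 products, which can form channels alone, with the Grik4 and Grik5 products, which bind kainate with higher affinity and need a partner of the first kind. They act on both sides of the synapse, and kainate itself is a classical agent for evoking seizures in rodents. The IC is the midbrain station where the ascending auditory pathways meet, and sound-evoked seizures are known to start there.

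The values are log2 signals of mouse probe sets that read hamster RNA, and for this reason a gene is set only against itself on other arrays. All 9 symbols also occur in the RefSeq gene table of the hamster. The rank of a gene's mean signal among the 19938 genes, given as a percentile, places its probe set and does not measure expression. It was 96.7 for Gria1, 99.1 for Gria2, 98.7 for Gria3 and 97.9 for Gria4. The percentile was 49.3 for Grik1, 68.8 for Grik2, 85.0 for Grik3, 87.5 for Grik4 and 87.8 for Grik5. The neuronal markers Snap25, Stmn2 and Nefl lay at percentiles of 99.7, 99.7 and 99.5, and the vesicular glutamate transporter of midbrain excitatory neurons, Slc17a6, lay at 97.7. The cortical glutamate transporter Slc17a7 lay at 51.2. Markers of neighbouring and distant regions spread widely: the 10 cerebellum markers lay between 14.5 (Neurod1) and 93.4 (Pcp4), the 5 telencephalon markers between 1.81 (Neurod6) and 88.7 (Bcl11b), and the 7 midbrain markers between 40.7 (Otx2) and 98.8 (Meis2).

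A pair of arrays lay farthest from their groups. The root-mean-square distance of an array from the other 5 of its group, over all genes, was 0.33 (log2) for naïve GASH/Sal replicate 6 and also 0.33 for stimulated Syrian replicate 4, against 0.15 to 0.23 for the other 22 arrays. In naïve GASH/Sal replicate 6, 235 genes were lower and 34 higher by more than 1 (log2) than the mean of the other 5 arrays. In stimulated Syrian replicate 4, 71 were lower and 68 higher. Naïve Syrian replicate 2, at 0.23 the farthest of the other 22, had 38 lower and 14 higher. The labels use 2 naming styles, called here label series A (replicates 1 to 3 of every group) and label series B (replicates 4 to 6). No source used here gives their meaning, and both arrays that stood apart belong to series B. Results are given with all 24 arrays and without naïve GASH/Sal replicate 6.

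On that array 3 of the 4 AMPA subunits lay far below the rest of their group. Gria2 (probe set 10498885) lay at 7.0 on naïve GASH/Sal replicate 6, against 8.72 to 9.09 on the other 5 naïve GASH/Sal arrays, a 3.67-fold lower signal. Gria3 (probe set 10599348) lay at 6.99 there, against 8.53 to 8.84, a 3.26-fold lower signal. Gria4 (probe set 10590663) lay at 7.11, against 8.09 to 8.33, a 2.20-fold lower signal. For these 3 genes the array was the lowest of all 24. Gria1 (probe set 10376245), the AMPA subunit best known from synaptic plasticity in the hippocampus, was nearer to its group at 7.45, against 7.54 to 8.03 on the other 5.

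The kainate subunits split on the same array. Grik2 (probe set 10368999), which forms channels alone and with Grik5, lay at 4.93, against 5.58 to 5.94 on the other 5 naïve GASH/Sal arrays, and this was its lowest value of all 24. Grik3 (probe set 10508052), another subunit that forms channels alone, lay at 7.11, against 5.97 to 6.64. Grik5 (probe set 10560945), the most widely expressed of the high-affinity subunits in rodent brain, lay at 7.23, against 6.20 to 6.81. The array held the highest of the 24 values for Grik3, Grik5 and Grik4 (probe set 10592629), the other high-affinity subunit, which lay at 6.77 against 6.30 to 6.53. Only Grik1 (probe set 10440621), at 4.82 against 4.70 to 5.22, was inside the range of the other 5 arrays.

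Set among all 19938 genes by their deviation on this array, Gria2 lay at percentile 0.0953, Gria3 at 0.176, Gria4 at 0.833 and Grik2 at 2.16. Grik3 lay at 99.2, Grik5 at 99 and Grik4 at 89.3. General neuronal markers lay inside the range of the other arrays. The mean level of the 8 markers (Snap25, Syt1, Rbfox3, Stmn2, Nefl, Nefm, Eno2, Map2) was 8.11 on the array, against 7.94 to 8.33 on the other 5, and 3 of the 8 were below the mean of those arrays. Other marker lists did lie outside the range of the other 5 naïve GASH/Sal arrays. The 5 vessel markers averaged 5.75, against 5.33 to 5.60, and none of the 5 was below the mean of those arrays. The 4 markers of GABAergic and glycinergic neurons averaged 6.65, against 6.35 to 6.56, the 6 oligodendrocyte markers 6.37, against 6.05 to 6.32, and the 5 telencephalon markers 5.08, against 4.72 to 4.89. The 7 astrocyte markers averaged 6.23, against 6.36 to 6.50, and the 3 glutamatergic markers 5.58, against 5.69 to 5.91. Below the mean of those arrays were 1 of the 4 GABAergic and glycinergic, 2 of the 6 oligodendrocyte and 0 of the 5 telencephalon markers. The same held for 5 of the 7 astrocyte and 2 of the 3 glutamatergic markers, so most of these averages hid markers going the other way. The part of these markers in the subunits' values was not tested.

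Stimulated Syrian replicate 4 deviated in the same direction as that array for 7 of the 9 subunits, by less for all of them except Grik1. On this array Gria3 lay at 7.67, against 8.28 to 8.61 on the other 5 stimulated Syrian arrays, Gria2 at 8.17, against 8.62 to 8.80, and Gria4 at 7.76, against 7.95 to 8.17. Grik2 lay at 5.29, against 5.41 to 5.79, Grik1 at 4.43, against 4.71 to 5.09, and Grik3 at 6.82, against 5.95 to 6.18. Gria1 ran the other way here at 7.89, against 7.50 to 7.79. The 3 glutamatergic markers, which were low in naïve GASH/Sal replicate 6, averaged 6.24 on this array, against 5.67 to 5.84 on the other 5. Vessel markers averaged 5.75, against 5.44 to 5.68, oligodendrocyte markers 6.40, against 6.14 to 6.21, and astrocyte markers 6.58, against 6.31 to 6.49. Choroid plexus markers averaged 4.49, against at most 4.29. Cerebellum markers averaged 5.39, against 5.10 to 5.25, and midbrain markers 6.09, against 5.85 to 5.96, while the general neuronal markers, at 8.00, lay inside the range of 7.99 to 8.09. Below the mean of the other 5 arrays were 0 of the 3 glutamatergic, 2 of the 5 vessel, 0 of the 6 oligodendrocyte and 2 of the 7 astrocyte markers. So were 1 of the 5 choroid plexus, 2 of the 10 cerebellum, 1 of the 7 midbrain and 6 of the 8 general neuronal markers. Their part in the subunits' values on this array was not tested.

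**Figure D1:**
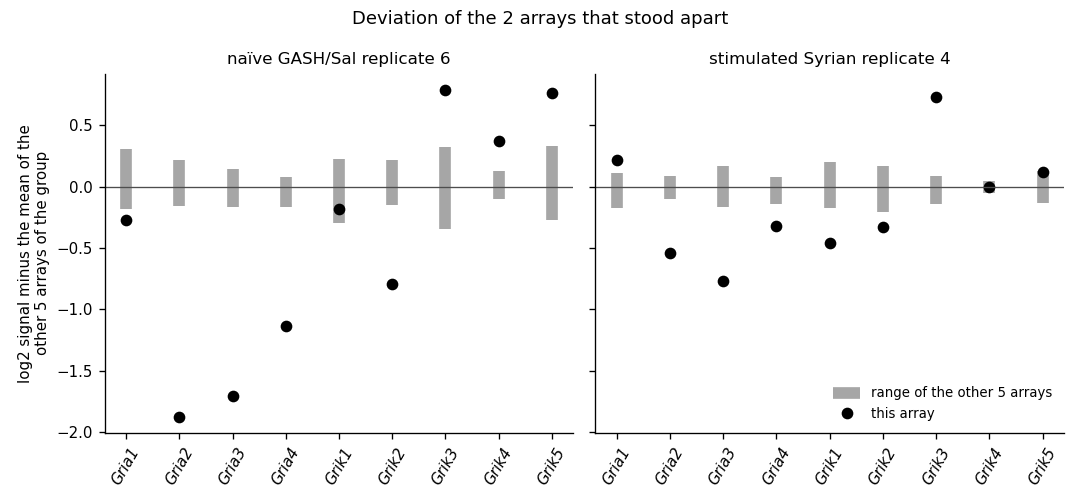
Deviation of the 9 subunits on naïve GASH/Sal replicate 6 (left) and stimulated Syrian replicate 4 (right), as log2 signal minus the mean of the other 5 arrays of the group. Points are the array named, and grey bars span the other 5 arrays; Gria2, Gria3, Gria4 and Grik2 lie below the bar and Grik3 above it on both.

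Across the 4 groups the medians lay close together for Gria2, and farther apart for Gria3, Gria4 and Grik2. Gria2 had a lowest, median and highest signal of 8.72, 8.76 and 9.0 in stimulated GASH/Sal, 7.0, 8.78 and 9.09 in naïve GASH/Sal, 8.17, 8.69 and 8.80 in stimulated Syrian and 8.25, 8.75 and 8.80 in naïve Syrian hamsters. The 4 medians lay within 0.1 of each other, and the lowest of the 24 values was that of naïve GASH/Sal replicate 6.

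Gria3, a subunit of auditory and forebrain AMPA receptors, gave 8.26, 8.55 and 8.63 in stimulated GASH/Sal, 6.99, 8.65 and 8.84 in naïve GASH/Sal, 7.67, 8.43 and 8.61 in stimulated Syrian and 7.75, 8.38 and 8.57 in naïve Syrian hamsters. Gria4, the subunit with the fastest kinetics in auditory neurons, gave 7.99, 8.16 and 8.26 in stimulated GASH/Sal, 7.11, 8.27 and 8.33 in naïve GASH/Sal, 7.76, 8.10 and 8.17 in stimulated Syrian and 7.72, 8.01 and 8.05 in naïve Syrian hamsters. For both genes the medians of the 2 GASH/Sal groups were above those of the 2 Syrian groups, with overlap between single arrays. Gria1 gave 7.55, 7.65 and 7.83 in stimulated GASH/Sal, 7.45, 7.64 and 8.03 in naïve GASH/Sal, 7.50, 7.74 and 7.89 in stimulated Syrian and 7.30, 7.52 and 7.67 in naïve Syrian hamsters, where it was lowest by median.

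Grik2 gave 5.59, 5.63 and 5.87 in stimulated GASH/Sal, 4.93, 5.68 and 5.94 in naïve GASH/Sal, 5.29, 5.62 and 5.79 in stimulated Syrian and 5.26, 5.40 and 5.55 in naïve Syrian hamsters. Grik3 gave 6.06, 6.35 and 6.53 in stimulated GASH/Sal, 5.97, 6.36 and 7.11 in naïve GASH/Sal, 5.95, 6.14 and 6.82 in stimulated Syrian and 5.99, 6.18 and 6.40 in naïve Syrian hamsters. Grik5 gave 6.24, 6.53 and 6.86 in stimulated GASH/Sal, 6.20, 6.49 and 7.23 in naïve GASH/Sal, 6.22, 6.41 and 6.48 in stimulated Syrian and 6.20, 6.52 and 6.73 in naïve Syrian hamsters. The medians of Grik2 and Grik3 were lower in both Syrian groups than in both GASH/Sal groups, and the stimulated and naïve groups of each strain overlapped. Grik1, a subunit that forms channels alone, ranged from 4.43 to 5.22 over the 24 arrays and Grik4 from 6.27 to 6.77. Grik4 had group means between 6.42 and 6.47, the narrowest span of the 9. Without naïve GASH/Sal replicate 6, the group means of Gria3, Gria4, Grik1 and Grik2 ran in 1 order, highest in naïve GASH/Sal, then stimulated GASH/Sal, stimulated Syrian and naïve Syrian hamsters, and no pair of neighbours in that order passed limma's test.

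**Figure D2:**
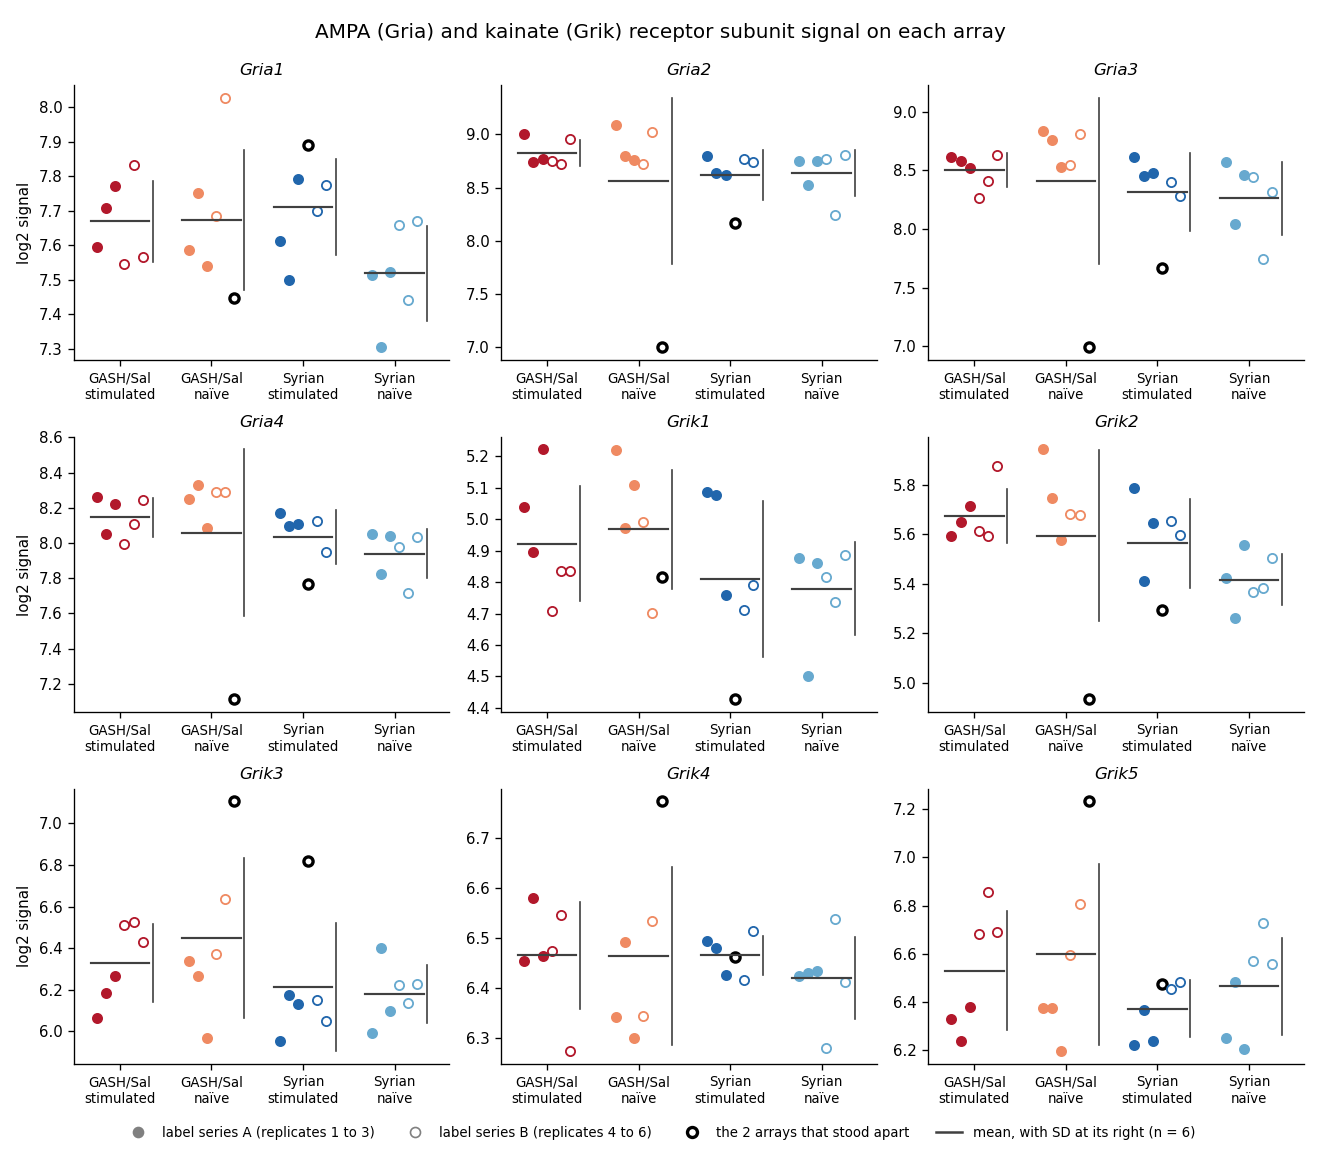
Log2 signal of each subunit on each array (vertical axis) in the 4 groups (horizontal axis), filled points for label series A and open points for label series B, with the mean and SD of each group (n = 6). The arrays with a black rim are naïve GASH/Sal replicate 6 and stimulated Syrian replicate 4, and the lowest point of Gria2, Gria3 and Gria4 in each of these groups is the rimmed array.

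The comparison of GASH/Sal with Syrian hamsters in the naïve state asked whether receptor subunits differ in the IC before any sound. With all 24 arrays, 8 of the 9 subunits lay above 0 and the median difference, GASH/Sal minus Syrian, was 0.15 (log2), against a median of -0.01 over all genes. None passed the test (limma, Benjamini-Hochberg adjustment over all genes, threshold 0.05), as was true of all 19938 genes (0 called, 0%). At an unadjusted p under 0.05, 1 of the 9 was called, Grik3, against 1201 of all genes (6.02%). Grik3 was 0.27 higher in GASH/Sal (SE 0.12, adjusted p = 0.785), with 5 of 6 arrays above the Syrian mean, and naïve GASH/Sal replicate 6 was the highest of them. Without that array its difference was 0.16 (SE 0.109, adjusted p = 0.717). In this comparison with all 24 arrays, the 8 general neuronal markers had a median of 0.09, with 5 of 8 above 0. The part of these markers in the subunits' values was not tested.

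Without naïve GASH/Sal replicate 6, the AMPA subunits and Grik2 lay higher in naïve GASH/Sal than in naïve Syrian hamsters, although none passed after adjustment, whereas 13 of all genes did (0.0652%). Unadjusted p was under 0.05 for 5 of the 9 subunits, all higher, against 1753 of all genes in either direction (8.79%). The median was 0.21 over the subunits and 0.12 over the 8 general neuronal markers, of which 5 lay above 0. Gria4 averaged 8.25 ± 0.0953 (SD, n = 5) in naïve GASH/Sal and 7.94 ± 0.139 (SD, n = 6) in naïve Syrian hamsters, a difference of 0.30 (SE 0.0823, 95% interval 0.13 to 0.47, 1.23-fold, limma adjusted p = 0.194). Grik2 averaged 5.73 ± 0.135 (SD, n = 5) in naïve GASH/Sal and 5.42 ± 0.104 (SD, n = 6) in naïve Syrian hamsters, a difference of 0.31 (SE 0.0864, 95% interval 0.13 to 0.48, 1.24-fold, limma adjusted p = 0.221). For these 2 genes the 5 GASH/Sal arrays did not overlap the 6 Syrian arrays, which held for 122 of all genes in this direction (0.612%).

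Gria3 had the largest difference of the 9 without that array, 0.41 (SE 0.125, 95% interval 0.16 to 0.67, 1.33-fold, limma adjusted p = 0.27). Gria2 differed by 0.23 (SE 0.107, adjusted p = 0.536) and Gria1 by 0.21 (SE 0.0857, adjusted p = 0.477). The sign of the Gria2 difference depended on the array, since it was -0.07 (SE 0.201, adjusted p = 0.97) with all 24. Grik4 and Grik5 gave -0.02 (SE 0.0704) and 0.04 (SE 0.0751), with 95% intervals of -0.16 to 0.12 and -0.12 to 0.19. The Gria2, Gria3 and Gria4 signals were low on naïve Syrian replicate 5 at 8.25, 7.75 and 7.72, and leaving it out besides naïve GASH/Sal replicate 6 gave the smallest differences over 23 such fits, 0.16, 0.33 and 0.26. With stimulated Syrian replicate 4 left out in its place, which changes mainly the error, Gria3 differed by 0.42 (SE 0.104, adjusted p = 0.0789), Gria4 by 0.31 (SE 0.0761, adjusted p = 0.0789) and Grik2 by 0.31 (SE 0.0795, adjusted p = 0.0905).

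The label series did not give the same values in the naïve comparison with all arrays, and naïve GASH/Sal replicate 6 is in series B. Within series A, with 3 animals of each strain, the differences were 0.21 for Gria2, 0.35 for Gria3, 0.25 for Gria4, 0.34 for Grik2 and 0.35 for Grik1. Within series B they were -0.36 for Gria2, -0.06 for Gria3, -0.01 for Gria4, 0.01 for Grik2 and 0.02 for Grik1, and 0.51 for Grik3 against 0.03 in series A.

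In stimulated animals the strain differences were smaller for most subunits. With all 24 arrays, 7 of the 9 lay above 0 with a median of 0.11, against -0.01 over all genes, and none passed in the naïve or the stimulated comparison (for the stimulated one, 0 of all genes, 0%). None of the 9 reached an unadjusted p under 0.05, against 1080 of all genes (5.42%). The 8 general neuronal markers had a median of 0.12 in the stimulated comparison, with 7 of 8 above 0 and none at an unadjusted p under 0.05. The part of these markers in the subunits' values was not tested. Gria2 was 0.20 higher in GASH/Sal (SE 0.201, adjusted p = 0.924), with 6 of 6 arrays above the Syrian mean, and the lowest Syrian array was stimulated Syrian replicate 4. Without naïve GASH/Sal replicate 6, which changes only the error here, 1 of the 9 had an unadjusted p under 0.05 (Grik5, 0.16 higher, SE 0.0714, adjusted p = 0.766), against 1260 of all genes (6.32%). With stimulated Syrian replicate 4 left out as well, Gria2 differed by 0.11 (SE 0.0927), Gria3 by 0.07 (SE 0.104) and Gria4 by 0.06 (SE 0.0761), and Grik3 by 0.22 (SE 0.0885, adjusted p = 0.945).

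Averaged over both sound conditions, all 9 subunits lay above 0 with all 24 arrays, with a median of 0.14, against -0.01 over all genes, of which 42.6% lay above 0. None of the 9 passed, and 2 of all genes did (0.01%). Grik1, Grik3 and Grik5 had an unadjusted p under 0.05, against 1593 of all genes (7.99%), with differences of 0.15, 0.19 and 0.14 and an adjusted p of 0.601 for each in limma's test. The 8 general neuronal markers also lay above 0 in this comparison, 8 of 8, with a median of 0.09, and 3 of them were higher at an unadjusted p under 0.05. With naïve GASH/Sal replicate 6 left out, 7 of the 8 lay above 0 and 3 had such a p. The part of these markers in the subunits' values was not tested. Without naïve GASH/Sal replicate 6, 5 of the 9 had an unadjusted p under 0.05, against 2042 of all genes (10.2%), and none of the 9 passed, against 36 of all genes (0.181%). The lowest adjusted p of the set was that of Gria4, 0.21 higher in GASH/Sal with 11 of 11 arrays above the Syrian mean (SE 0.0568, 95% interval 0.09 to 0.32, adjusted p = 0.138). Gria3 was 0.30 higher (SE 0.0864, adjusted p = 0.16), Grik2 0.21 (SE 0.0596, adjusted p = 0.16), Gria2 0.22 (SE 0.0741, adjusted p = 0.273) and Grik1 0.16 (SE 0.068, adjusted p = 0.428). Across these comparisons the same Syrian and GASH/Sal arrays entered more than once, so they are not separate evidence.

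**Figure D3:**
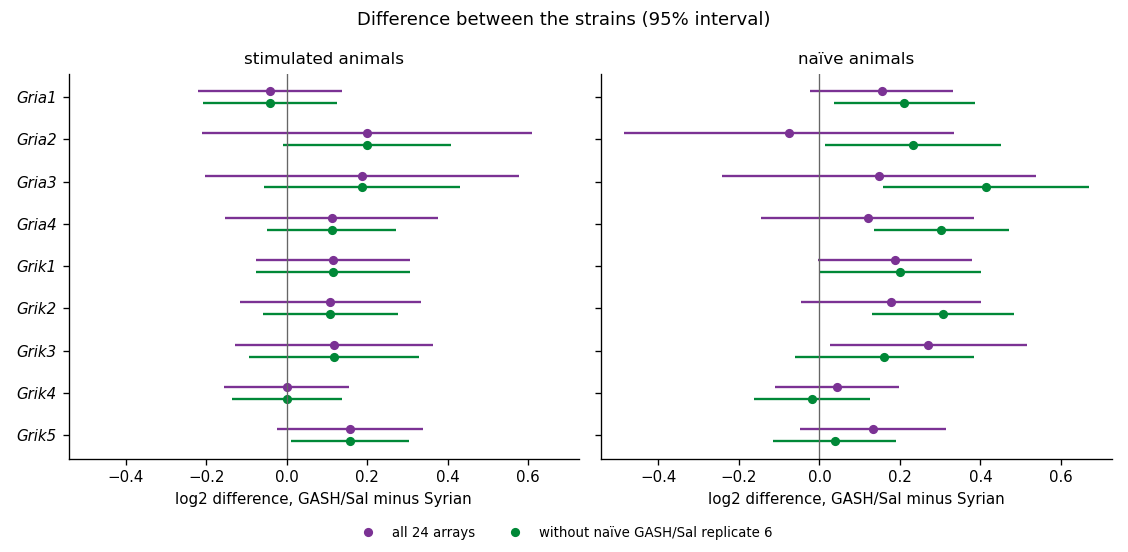
Difference between the strains, GASH/Sal minus Syrian, on the log2 scale (horizontal axis) for each subunit (vertical axis), in stimulated animals (left) and naïve animals (right), with 95% intervals from limma for all 24 arrays (upper) and without naïve GASH/Sal replicate 6 (lower). In naïve animals the intervals of Gria1, Gria2, Gria3, Gria4 and Grik2 clear 0 only without naïve GASH/Sal replicate 6, and that of Grik3 only with it.

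The comparison of stimulated with naïve animals asked whether the subunits differ 60 min after sound, and in GASH/Sal hamsters none was called. With all 24 arrays, 5 of the 9 lay above 0 with a median of 0.00, against 0.01 over all genes, none passed (0 of all genes, 0%) and none had an unadjusted p under 0.05 (889 of all genes, 4.46%). Gria2 had the largest difference, 0.26 (SE 0.201, 95% interval -0.15 to 0.67, adjusted p = 0.999), and all 6 stimulated arrays lay above the naïve mean, which included the array at 7.0. Without that array the Gria2 difference was -0.05 (SE 0.107, 95% interval -0.27 to 0.17), and 2 of 6 stimulated arrays lay above the naïve mean. Gria3 likewise gave 0.09 (SE 0.191) with all arrays and -0.17 (SE 0.125) without it, when none of the 6 stimulated arrays was above the naïve mean. In that fit 7 of the 9 were below 0, none had an unadjusted p under 0.05, against 892 of all genes (4.47%), and the 95% intervals of all 9 lay between -0.43 and 0.21.

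In Syrian hamsters, Gria1 was the subunit with the lowest p. Its mean was 7.71 ± 0.139 in the stimulated group and 7.52 ± 0.138 in the naïve group (SD, n = 6 each), a difference of 0.19 (SE 0.0873, 95% interval 0.01 to 0.37, 1.14-fold), and 5 of the 6 stimulated arrays exceeded the naïve mean. This difference did not pass over all genes (limma adjusted p = 0.743, and adjusted p = 0.597 without naïve GASH/Sal replicate 6), and the groups overlapped. Series A gave 0.19 and series B 0.20, and it was 0.17 (SE 0.0836) with stimulated Syrian replicate 4 left out as well, when Grik2 gave 0.20 (SE 0.0795, adjusted p = 0.456). Of the 9 subunits 7 lay above 0, with a median of 0.05, against 0.02 over all genes. None of the 9 or of all genes passed (0%), and at an unadjusted p under 0.05 Gria1 alone was called, against 1323 of all genes (6.64%) and 1575 (7.9%) without naïve GASH/Sal replicate 6. Grik2 differed by 0.15 (SE 0.11, adjusted p = 0.832), while Gria2 gave -0.02 (SE 0.201) and Grik5 -0.09 (SE 0.089).

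The test of whether sound acted unlike in the 2 strains gave no call either. With all 24 arrays the difference of the responses, GASH/Sal minus Syrian, had a median of -0.04 over the subunits, none passed (0 of all genes, 0%) and none had an unadjusted p under 0.05 (734 of all genes, 3.68%). Without naïve GASH/Sal replicate 6, Gria1 had -0.25 (SE 0.118, 95% interval -0.50 to -0.01, adjusted p = 0.971), 1 of the 9 at an unadjusted p under 0.05 against 958 of all genes (4.8%). With stimulated Syrian replicate 4 left out too, Gria1 had -0.23 (SE 0.119), Gria3 -0.35 (SE 0.148, adjusted p = 0.744), Gria4 -0.24 (SE 0.108, adjusted p = 0.745) and Grik2 -0.25 (SE 0.113, adjusted p = 0.745). In the fit without naïve GASH/Sal replicate 6 alone, the sound response of Gria1 was -0.06 (SE 0.0857) in GASH/Sal and 0.19 (SE 0.0815) in Syrian hamsters. Averaged over both strains, the sound response was 0.07 by the median of the subunits with all arrays and 0.00 without that array. None of the 9 passed or had an unadjusted p under 0.05 in either, whereas 1 of all genes passed with all arrays (0.00502%), and 1474 (7.39%) with all and 1416 (7.1%) without it had an unadjusted p under 0.05.

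**Figure D4:**
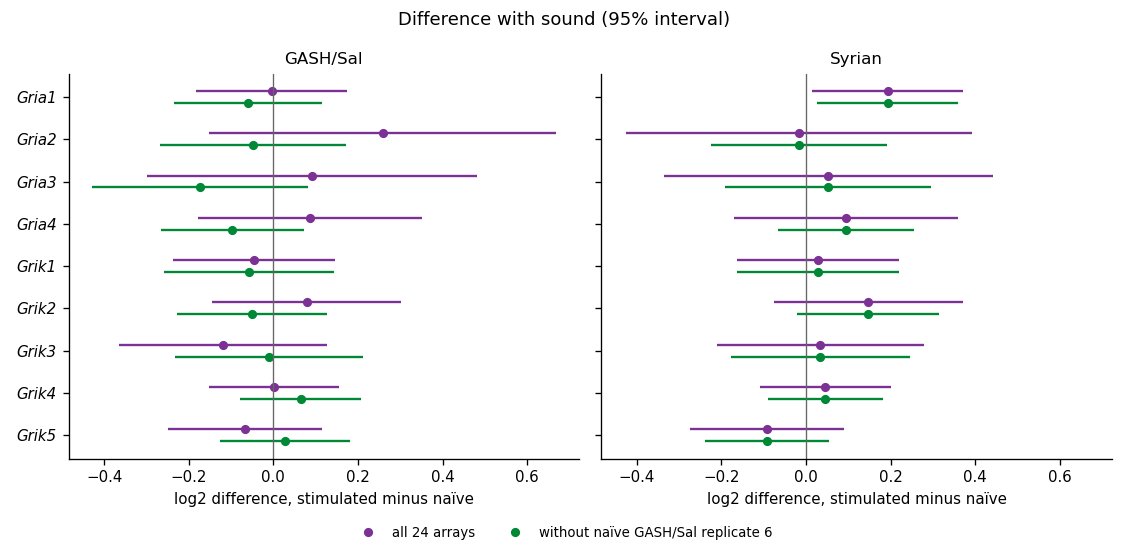
Difference with sound, stimulated minus naïve, on the log2 scale (horizontal axis) for each subunit (vertical axis) in GASH/Sal (left) and Syrian (right) hamsters, with 95% intervals from limma for all 24 arrays (upper) and without naïve GASH/Sal replicate 6 (lower). Every interval in GASH/Sal spans 0, and in Syrian animals that of Gria1, from 0.01 to 0.37, does not.

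The only calls for the subunits themselves were between the 2 label series. Grik5 was 0.37 higher in series B than in series A (SE 0.0629, limma adjusted p = 0.000316, and 0.33, adjusted p = 0.000165, without naïve GASH/Sal replicate 6). Its 12 values lay between 6.45 and 7.23 in series B, against 6.20 to 6.48 in series A, so that the series nearly parted. In the GASH/Sal groups they did part, with 6.60 to 7.23 in series B and 6.20 to 6.38 in series A. Grik3 was 0.28 higher in series B (SE 0.0848, adjusted p = 0.0413), but without naïve GASH/Sal replicate 6 the difference was 0.22 (SE 0.075, adjusted p = 0.0717). Of all genes, 1374 (6.89%) were called between the series with all arrays and 1228 (6.16%) without that array, and 2 and 1 of the 9 subunits. Grik1 had -0.20 (SE 0.0662, adjusted p = 0.0697) and Gria3 -0.33 (SE 0.135, adjusted p = 0.153). The series are balanced over the 4 groups and stood in the model, and this comparison was chosen after the values were seen.

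Some subunits varied together from array to array. After the group and series means were removed, Gria2, Gria3 and Gria4 followed each other over the 24 arrays, with Pearson's r of 0.96 for Gria2 and Gria3 (Spearman's rho = 0.90), 0.95 for Gria2 and Gria4 (rho = 0.85) and 0.96 for Gria3 and Gria4 (rho = 0.91). Each of these r and rho had a permutation p of 1e-05, the smallest that 100000 permutations can give (adjusted over the 36 pairs, p = 7.2e-05 for r and p = 0.00012 for rho). Grik2 followed them with r of 0.87 with Gria2 (rho = 0.77), 0.86 with Gria3 (rho = 0.78) and 0.86 with Gria4 (rho = 0.78), with permutation p from 1e-05 to 6e-05 and adjusted p from 7.2e-05 to 0.00036. All genes of an array share its RNA, dissection and hybridisation, and the points are arrays, not conditions.

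These 6 relations weakened and held without naïve GASH/Sal replicate 6, at r of 0.90 for Gria2 and Gria3, 0.87 for Gria3 and Gria4, 0.76 for Gria2 and Gria4, and 0.64, 0.65 and 0.61 for Grik2 with Gria2, Gria3 and Gria4 (permutation p from 1e-05 to 0.00197, adjusted p from 0.00018 to 0.0101). With stimulated Syrian replicate 4 left out too, they were 0.85, 0.83, 0.67, 0.50, 0.50 and 0.48 in the same order. Without the 2 arrays farthest from the median of the first gene named in each pair (all 24 arrays otherwise), r ran from 0.66 to 0.90. It ran from 0.55 to 0.77 within series A and from 0.92 to 0.99 within series B, which was 0.71 to 0.97 without naïve GASH/Sal replicate 6. Of the 36 pairs, 25 had an adjusted p under 0.05 for r over the 24 arrays, 12 positive and 13 negative, and 7 without naïve GASH/Sal replicate 6, all of them among the 25. The only negative one of the 7 was Grik1 with Grik3, at -0.55 over 24 arrays (rho = -0.43, permutation p = 0.00568 for r and 0.0387 for rho, adjusted p = 0.00974 and 0.0995) and -0.62 without that array. It was -0.27 without the 2 arrays farthest in Grik1, so it rests on those arrays. The negative relations of Grik3, Grik4 and Grik5 with Gria2 (r = -0.65, -0.69 and -0.71) went to -0.39, -0.29 and -0.12 without naïve GASH/Sal replicate 6. Pairs of other genes were not counted in this way, so the counts of 25 and 7 pairs cannot be called particular to the subunits.

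Over the 24 arrays, with values not centred, the gene most like each subunit among all genes was found by Pearson's r, as a description. Gria4 was most like Gabrb2, a GABA-A receptor subunit (r = 0.96, and 0.90 without naïve GASH/Sal replicate 6). Gria2 and Gria3 were both most like Zmym2 (r = 0.96 and 0.97, and 0.92 and 0.93 without it), Grik2 was most like Fam135a (0.91 and 0.85) and Grik5 most like Ncdn (neurochondrin, 0.95 and 0.93). Grik4 was most like Myg1 at 0.80, which went to 0.66 without that array. Spearman's rho over the 24 arrays was 0.72 for Gria2 with Zmym2 and 0.60 for Grik4 with Myg1. It was 0.86 to 0.91 for the other pairs named here. Without naïve GASH/Sal replicate 6 the gene most like Gria3 was Mirlet7c-1, that of Gria4 was Rapgef6 and that of Grik4 was Rfpl4.

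The proteins that accompany these receptors were listed as 59 genes, of which 54 were measured, and none passed in any of the 7 contrasts with all 24 arrays. The kainate auxiliary subunit Neto1, a transmembrane protein that slows the decay of kainate currents and is also found with NMDA receptors, stood out between the strains. Its lowest, median and highest signals were 5.74, 6.08 and 6.42 in stimulated GASH/Sal, 5.0, 5.92 and 6.49 in naïve GASH/Sal, 5.30, 5.82 and 6.10 in stimulated Syrian and 4.89, 5.52 and 5.60 in naïve Syrian hamsters. The 5.0 was naïve GASH/Sal replicate 6, and the other 5 arrays of that group lay from 5.77 to 6.49, above all naïve Syrian arrays. With replicate 6 left out, such a lack of overlap in this direction held for 122 of all genes (0.612%).

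Averaged over both sound conditions, Neto1 was 0.41 higher in GASH/Sal with all 24 arrays (SE 0.119, 1.33-fold, limma adjusted p = 0.42), with 11 of 12 arrays above the Syrian mean. Without naïve GASH/Sal replicate 6 it passed the threshold, at 0.49 (SE 0.102, 95% interval 0.29 to 0.70, 1.41-fold, adjusted p = 0.0292), with 11 of 11 arrays above. This was 1 of 36 genes called in that fit. With 1 further array left out in turn, it was called in 15 of 23 fits, and the highest adjusted p was 0.104, without naïve GASH/Sal replicate 5. In naïve animals alone the difference without naïve GASH/Sal replicate 6 was 0.64 (SE 0.147, 1.56-fold, adjusted p = 0.0795), and with 1 further array left out in turn it ran from 0.51 to 0.72 and was called in 1 of 23 fits (adjusted p from 0.0325, without stimulated Syrian replicate 4, to 0.454, without naïve GASH/Sal replicate 5). In stimulated animals alone the groups of the 2 strains overlapped. With each of the 24 arrays left out in turn, the Neto1 difference there ran from 0.27 to 0.40. It was called in 0 of 24 fits (limma adjusted p from 0.735 to 0.999). Within the label series, with all arrays, series A gave an averaged difference of 0.40 and series B one of 0.42. Neto2, the other kainate auxiliary subunit, passed in no contrast.

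The 12 measured extracellular organisers are secreted or adhesion proteins that cluster glutamate receptors at synapses, and none passed the adjusted threshold with sound. In GASH/Sal hamsters 6 of the 12 were higher with sound at an unadjusted p under 0.05 and none lower, against 4.46% of all genes in either direction, and in Syrian hamsters 2 were higher and none lower, against 6.64%. Their medians were 0.21 in GASH/Sal and 0.13 in Syrian hamsters, against 0.01 and 0.02 over all genes. Leaving out naïve GASH/Sal replicate 6 gave 4 higher in GASH/Sal (4.47% of all genes) and 3 in Syrian hamsters (7.9%). Among the oligodendrocyte markers none passed the adjusted threshold, and 3 of the 6 were higher with sound in GASH/Sal at an unadjusted p under 0.05, with a median of 0.14, and 4 of the 6 averaged over both strains, with a median of 0.12. Their part in the organisers' values was not tested. C1ql3, a secreted C1q-like protein that binds kainate receptors at mouse hippocampal synapses, had 3.92, 4.04 and 4.41 in stimulated GASH/Sal and 3.67, 3.94 and 3.99 in naïve GASH/Sal (lowest, median and highest). It had 4.02, 4.15 and 4.25 in stimulated Syrian and 3.69, 3.87 and 4.01 in naïve Syrian hamsters, which did not overlap, as 39 of all genes did not in this direction (0.196%). All C1ql3 values lay below the array medians, so its probe set was dim, and the part of background in these values was not tested. Averaged over both strains the C1ql3 difference was 0.25 (SE 0.0613, 1.19-fold, limma adjusted p = 0.2), and 12 of 12 stimulated arrays exceeded the naïve mean.

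Olfm3, an olfactomedin found in AMPA receptor complexes, was 0.37 higher with sound averaged over both strains (SE 0.101, adjusted p = 0.344, 10 of 12 arrays) and Lrrtm2, a postsynaptic adhesion protein that holds AMPA receptors, was 0.28 higher (SE 0.0941, adjusted p = 0.504, 11 of 12 arrays). Series A alone gave 0.54 for Olfm3 and 0.39 for Lrrtm2, and series B alone 0.19 and 0.17. The neuronal pentraxins Nptx1 and Nptx2, which gather AMPA receptors and are induced by activity, were 0.30 (SE 0.0937) and 0.27 (SE 0.112) higher in stimulated than in naïve GASH/Sal hamsters, with an adjusted p of 0.999 for both. For Nptx1 the difference was 0.54 in series A and 0.05 in series B.

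**Figure D5:**
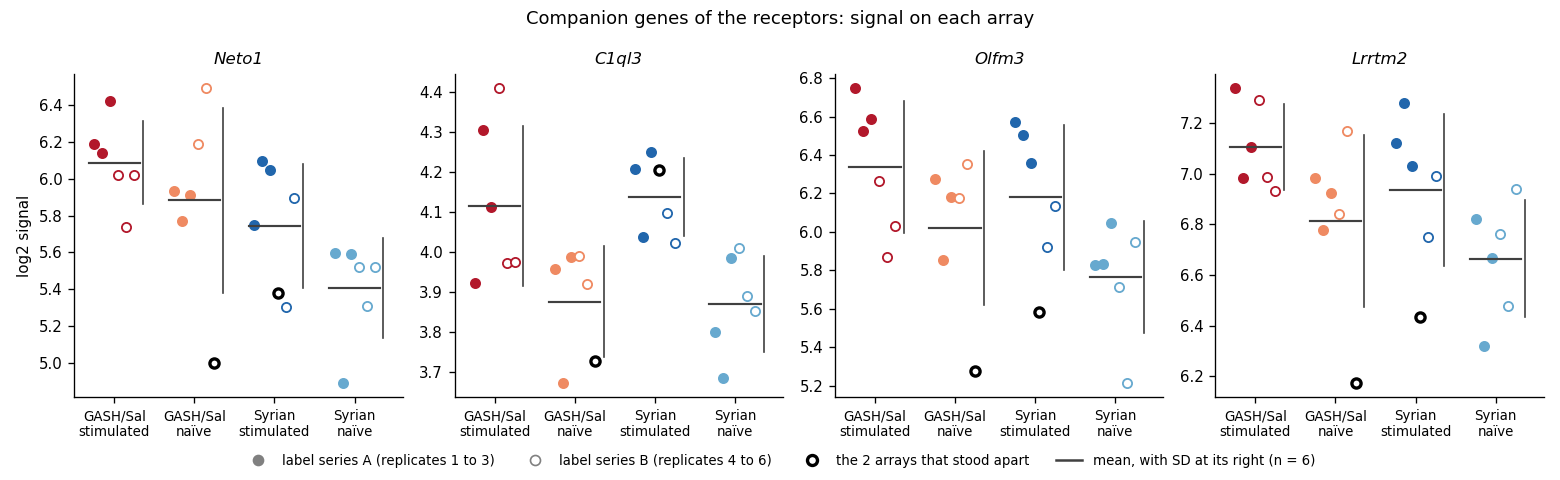
Log2 signal of 4 companion genes on each array (vertical axis) in the 4 groups (horizontal axis), filled points for label series A and open points for label series B, with the mean and SD of each group (n = 6). The median of Neto1 is higher in both GASH/Sal groups than in both Syrian groups, but the stimulated groups overlap and naïve GASH/Sal replicate 6 (black rim) lies at 5.0. C1ql3, with all values below the array medians, does not overlap between stimulated and naïve Syrian animals.

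Other companion groups showed few differences. Between the strains, none of the 6 transmembrane AMPA receptor regulatory proteins (TARPs), the main AMPA auxiliary subunits, had an unadjusted p under 0.05. With sound in GASH/Sal 1 TARP was lower at that threshold, against 4.46% of all genes in either direction. Without naïve GASH/Sal replicate 6 the count of TARPs lower there was 0. None of the 6 assembly factors and none of the 3 RNA-editing enzymes had such a p in any contrast with all arrays. Among 8 other AMPA auxiliary subunits, the difference of naïve GASH/Sal minus naïve Syrian hamsters was 0.23 for Shisa9 and -0.21 for Prrt1 (adjusted p = 0.764 for each). Without naïve Syrian replicate 2 the Shisa9 difference was 0.15. Of the 16 scaffold and trafficking proteins, 1 was lower between the naïve strains and none higher at an unadjusted p under 0.05. The share of all genes with such a p in that comparison was 6.02% in either direction.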

How the data were processed

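Total RNA of the IC was labelled and hybridised to mouse whole-transcript arrays of Affymetrix. The authors deposited log2 probe set signals, and the submitters' processing notes name RMA without a version, a method that corrects background, normalises between arrays and summarises probes. There were 35556 probe sets and 24 columns of arrays, with medians from 4.50 to 4.65, and 0 columns of per-sample values were left out. The platform annotation gave 1 symbol for 21789 probe sets, several for 1621 and none listed for 12146. The highest-mean probe set was kept for each of 999 genes with more than 1, which left 19938 genes, with no filter on dim ones.

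Groups came from the labels. limma (version 3.58.1, R version 4.3.3) fitted the 4 groups and the label series on all arrays with lmFit and eBayes (19 residual degrees of freedom), and p-values, two-sided, were adjusted by Benjamini-Hochberg over all genes. The 7 contrasts were those of the text. Arrays give no read depth, so their number limits the precision, and the median SE of a difference between 2 groups was 0.0895. P-values measure the spread between samples that the labels call biological replicates. Correlations used permutations in Python (numpy 2.4.6). The fits were tested on simulated data.

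Members and companion lists were chosen with earlier results of these data known. Companion genes were named where they passed or were among the 3 with the largest moderated statistic in a contrast. Neto2 and the single marker genes were named after their values were seen. Alternatives were a fit with no series term, a block by replicate number, series A or B only, fits to 2 groups, a median-signal filter, other ways to take probe sets, median centring, quantile normalisation, trend and robust eBayes, array weights, a 2-fold rule, an exact permutation test and each array left out. Leaving out 2 arrays was added after seeing the data. Sequences of the subunits were not used here.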

Additional observations from a re-analysis of the deposited data

Results flagged for a closer look

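A single sample lay far from the other 5 of its group in 7 of 36 sets of values (9 subunits in 4 groups), by the gap to the nearest array over the whole range, with a limit of 0.625. Chance flags about 1 in 20 such groups. Naïve GASH/Sal replicate 6 gave 4 of them as the lowest array, with ratios of 0.821 for Gria2, 0.834 for Gria3, 0.801 for Gria4 and 0.638 for Grik2. Stimulated Syrian replicate 4 gave the other 3, as the lowest array for Gria2 (0.71) and Gria3 (0.642) and the highest for Grik3 (0.742). The 2 arrays were also the farthest from their groups over all genes. No subunit's response to sound ran one way on every array of 1 strain and the opposite way in the other.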

How the results depend on the processing

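No subunit passed in any contrast under any alternative, and 135 of 2333 recomputed differences changed sign, none of them called. These sign changes touched 34 of the 63 results, a result being the difference of a subunit in a contrast. The 2333 include refits that could not change a sign, such as other ways to take probe sets, since each subunit was read by 1. The share of 135 in 2333 is therefore no measure of how stable the signs were. The counts of all genes passing moved more. For sound in GASH/Sal (0) they were 7 in series A and 1 with the median-signal filter, with trend and robust eBayes and with array weights, and in Syrian hamsters (0) 5 in series A. For the naïve strains (0) they were 2 with the filter, 2 with median centring, 18 with array weights and 64 without both arrays that stood apart. For sound over both strains (1) they were 444 in series A, 0 in series B, 14 with array weights, 2 without both arrays and 0 by the 2-fold rule. For strain over both sound conditions (2) they were 0 without the series term, in either series, with every probe set and by the 2-fold rule, 19 with array weights and 36 without both arrays. The median of the subunits in series B was 0.023 for the naïve strains (0.15 with both series) and 0.13 for the difference of responses (-0.04). Naïve GASH/Sal replicate 6 entered both of these series B values.

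Leaving out each array in turn gave 0 to 1 genes for sound in GASH/Sal, 0 to 13 for the naïve strains (13 without naïve GASH/Sal replicate 6, 3 without stimulated Syrian replicate 4), 1 to 12 for sound over both strains (12 without stimulated GASH/Sal replicate 6, 5 without naïve GASH/Sal replicate 5) and 0 to 36 for strain over both (36 without naïve GASH/Sal replicate 6, 5 without replicate 3 of that group). The medians of the subunits ran from -0.05 to 0.06, 0.09 to 0.21, 0.00 to 0.12 and 0.11 to 0.16 in these contrasts.

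With the replicate block, 0 genes passed for strain over both sound conditions, and no call of a subunit changed. Same-numbered animals share only a number: 12 of 36 pairs of same-numbered arrays had correlated deviations from their group means above 0.1 (range -0.16 to 0.32). With the label series means also removed, 2 of 36 pairs were above 0.1 (range -0.21 to 0.12). Few animals limit these tests, since the SE of a subunit's difference between 2 groups was 0.0756 to 0.201.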
